A study of Canis lupus familiaris with 13 samples.

Results

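Transcripts of the oxidative phosphorylation system were followed in 13 RNA sequencing libraries of dog skeletal muscle. The members were 36 named nuclear genes for subunits of complexes I to V and the 13 protein genes of mitochondrial DNA, 49 genes in all, taken by gene name from a table of 30951 genes. The table held 28 of the nuclear genes and all 13 mitochondrially encoded ones, so 41 genes were analysed. ATP5MC3, ATP5PO, COX6C, COX7B, NDUFA1, NDUFA4, SDHD and UQCRH were not found under these names and were not analysed here. Of the nuclear members, 12 belonged to complex I, 3 to complex II, 5 to complex III, 4 to complex IV and 4 to complex V. Mitochondrial DNA encoded 7 members of complex I, 1 of complex III, 3 of complex IV and 2 of complex V. All 41 members passed the filter on low counts, which kept 14629 genes, and no member shared its symbol with another row.

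Oxidative phosphorylation takes place in the inner mitochondrial membrane. Complexes I and II take electrons from NADH and succinate, complex III passes them to cytochrome c, complex IV passes them to oxygen, and complex V, the ATP synthase, uses the proton gradient built up on the way to make ATP. Complexes I, III, IV and V are assembled from proteins of both genomes, whereas complex II is encoded by nuclear genes alone. Mitochondrial genes are read as long shared transcripts that are cut into separate RNAs, while each nuclear subunit has a promoter of its own, and oxidative muscle fibres are rich in both kinds of transcript.

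Biopsies of the biceps femoris, a thigh muscle, came from 4 wild type dogs aged 9 to 10 months and were flash frozen. The 3 basal libraries were sample 0 of dogs 2, 3 and 4, and the 10 insulin stimulated libraries were samples 1 and 2 of every dog and sample 3 of dogs 1 and 2. The labels do not say what the sample numbers stand for, and dog 1 had no basal library. Libraries of 1 dog are repeated biopsies and not separate animals, so p-values measure the spread between biopsies within dogs.

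Total counts ran from 45200416 to 81948641 per library. Skeletal muscle markers, 7 of 7 found, summed to 202635 to 389654 CPM (a count scaled to a common library total, with totals adjusted by the TMM method) in every library, and no marker found was at 0 counts in all libraries. Both fibre types were present in all libraries, with 9 of 9 slow fibre markers and 8 of 10 fast fibre markers found. Dog 1 sample 2 stood apart. ACTA1, the actin of skeletal muscle fibres, took 18.4% of its counts against 10.4% to 13.7% in the other 12 libraries, and the main ranges and medians are also given without it. Dog 3 sample 0 had the highest sums of fibroblast markers (2895 CPM, 6 of 6 found, against 228 to 1186 CPM elsewhere), endothelial markers (298 CPM), macrophage markers (51.8 CPM), neutrophil markers (73.6 CPM) and adipocyte markers (34.5 CPM), and dog 4 sample 0 had the lowest fibroblast sum. Smooth muscle and pericyte markers summed to 87.0 to 249.8 CPM, and red blood cell markers to at most 2.79 CPM.

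The mitochondrially encoded transcripts varied several-fold between biopsies, whereas the nuclear ones stayed within a narrow band in all but 1 library. Summed over 13 genes, the mitochondrial level was 13492, 3510 and 7359 CPM in dog 1 samples 1, 2 and 3. It was 6640 CPM in dog 2 sample 0 and 4785, 6526 and 6935 CPM in its samples 1, 2 and 3. In dog 3 it stood at 5628 CPM in sample 0 and at 13534 and 11116 CPM in samples 1 and 2. Dog 4 had 12588 CPM in sample 0 and 5709 and 5434 CPM in samples 1 and 2. High and low libraries thus occurred in both stimulation groups, and the basal range (5628 to 12588 CPM) lay inside the insulin range (3510 to 13534 CPM).

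As a share of all counts, the mitochondrial members took between 0.285% (95% Wilson interval 0.283% to 0.286%) in dog 1 sample 2 and 1.49% (1.48% to 1.49%) in dog 3 sample 1, a 5.23-fold range, and a 2.99-fold range without dog 1 sample 2. The intervals cover counting error only. The 28 nuclear members took 2.24% to 3.20% of counts, and at most 2.89% without dog 1 sample 2. Their summed level was 24029, 22528 and 29539 CPM in the basal libraries of dogs 2, 3 and 4, and its lowest, median and highest values in the 10 insulin libraries were 22817, 26433 and 39514 CPM. The highest was dog 1 sample 2. Without it the nuclear sum ran from 22528 to 29640 CPM, a 1.32-fold range. The ratio of mitochondrial to nuclear member counts ran from 0.0888 in dog 1 sample 2 to 0.552 in dog 3 sample 1, a 6.22-fold range. Without dog 1 sample 2 it ran from 0.193 to 0.552, a 2.86-fold range.

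**Figure D1:**
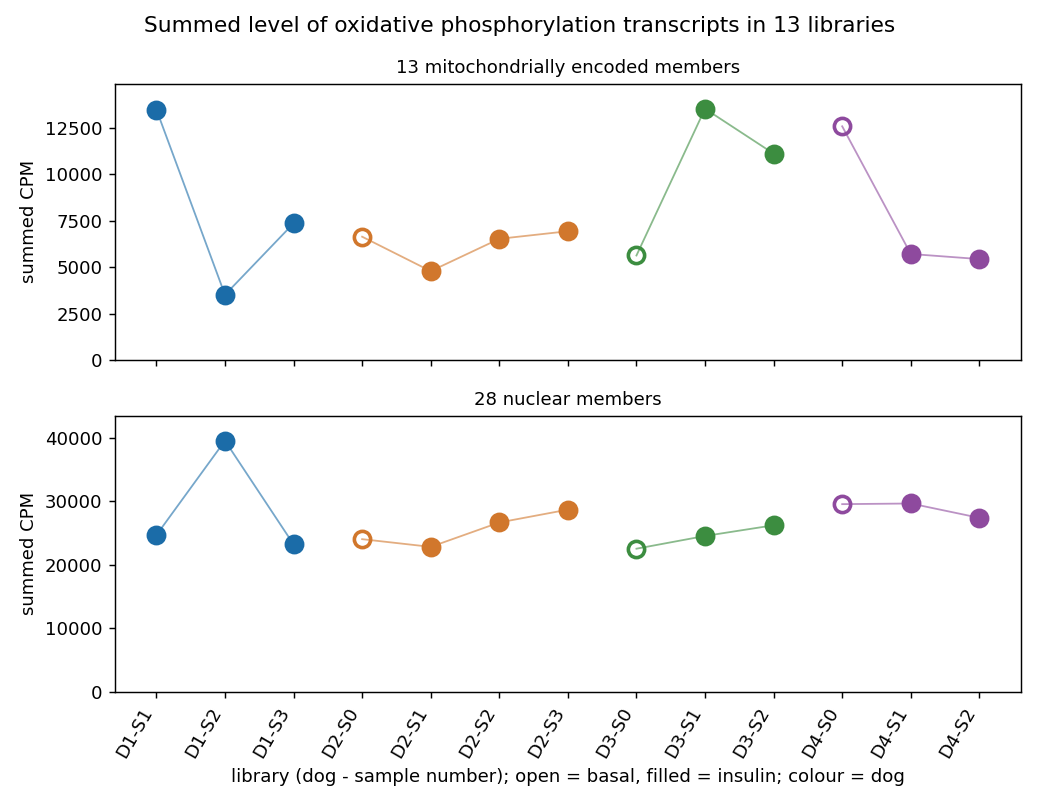
Summed CPM (vertical axes, starting at 0) of the 13 mitochondrially encoded members (upper panel) and the 28 nuclear members (lower panel) in each library, with open circles for basal, filled circles for insulin and 1 colour per dog; lines join the libraries of a dog and carry no time axis. The mitochondrial sum runs from 3510 to 13534 CPM, and dog 1 sample 2 holds both the lowest mitochondrial and the highest nuclear sum (39514 CPM).

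Gene by gene the 2 genomes differed in spread in the same way. The standard deviation of log2 CPM over the 13 libraries had a median of 0.70 over the mitochondrial members (0.53 to 0.84) and of 0.27 over the nuclear members (0.17 to 0.40). The ranges of the 2 sets did not overlap. Over all genes tested the median was 0.44, and over the 4740 genes with a mean level at or above that of the lowest nuclear member it was 0.30. Leaving out dog 1 sample 2 gave 0.55 for the mitochondrial and 0.20 for the nuclear members. Within dogs, after each dog's mean was taken off, the medians were 0.71 and 0.26. Members of 1 genome share their libraries and, for mitochondrial genes, their primary transcripts, so they are not independent of each other.

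Mitochondrial complex I members form the proton-pumping membrane arm. MT-ND1, at the site where ubiquinone is reduced, stood at 162, 109 and 215 CPM in the basal libraries of dogs 2, 3 and 4, against a lowest, median and highest of 73.8, 162 and 357 CPM in the insulin libraries. MT-ND2, an antiporter-like subunit, had 153, 101 and 198 CPM in those basal libraries and 59.8, 162 and 390 CPM as its insulin lowest, median and highest. Both were lowest in dog 1 sample 2 and highest in dog 1 sample 1. MT-ND4, another antiporter-like subunit, had 781, 633 and 1523 CPM in the basal libraries and 557, 842 and 1752 CPM across the insulin ones, and it was lowest in dog 2 sample 1. ND5, the antiporter-like subunit at the far end of the arm, had 162, 203 and 426 CPM in the basal libraries and 65.8, 198 and 352 CPM across the insulin ones. It was one of the members whose highest library was a basal one, dog 4 sample 0.

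The small members of the same arm followed the same libraries. MT-ND3 stood at 32.5, 27.4 and 51.8 CPM in the basal libraries and at 7.10, 37.7 and 70.3 CPM as insulin lowest, median and highest, a 9.89-fold range that was the widest of any member. Without dog 1 sample 2 the range of MT-ND3 was 3.52-fold, and MT-CO1 had the widest, 5.15-fold. ND4L had 136, 100 and 173 CPM in the basal libraries and 91.5, 135 and 363 CPM across the insulin ones. MT-ND6 had 53.0, 50.5 and 97.8 CPM in the basal libraries and 20.8, 51.9 and 127 CPM across the insulin ones. In all 3 genes the basal values lay within the insulin range. MT-ND6 is encoded on the other DNA strand from the remaining protein genes, and the library kit keeps no strand, so its count may include RNA of the opposite strand. ND4L and MT-ND4 overlap, as do MT-ATP8 and MT-ATP6, and how reads in the overlaps were assigned was not given in the sources used here.

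For complex III, MT-CYB, the cytochrome b that carries both quinone sites, stood at 272, 274 and 556 CPM in the basal libraries of dogs 2, 3 and 4 and at 125, 309 and 603 CPM as the insulin lowest, median and highest. In complex IV, MT-CO1, which holds the centre where oxygen is reduced, had 1911, 1662 and 4167 CPM in the basal libraries and 809, 1892 and 3794 CPM across the insulin ones. MT-CO1 was highest in dog 4 sample 0 and lowest in dog 4 sample 1, so its extremes came from a single dog. MT-CO2, which receives electrons from cytochrome c, had 720, 545 and 1124 CPM in the basal libraries and 239, 733 and 1474 CPM across the insulin ones. COX3, the third core subunit, had 1391, 1209 and 2577 CPM in the basal libraries and 396, 1349 and 2923 CPM across the insulin ones. MT-CO2 and COX3 were both lowest in dog 1 sample 2 and highest in dog 3 sample 1.

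In complex V, MT-ATP6, the subunit that lines the proton path, stood at 807, 647 and 1300.4 CPM in the basal libraries and at 343, 858 and 1759 CPM as the insulin lowest, median and highest. MT-ATP8, a small membrane subunit, had 58.9, 67.4 and 179 CPM in the basal libraries and 27.5, 70.3 and 147 CPM across the insulin ones. Its highest library was again dog 4 sample 0. Over the 13 mitochondrial members, 10 were lowest in dog 1 sample 2, 2 in dog 2 sample 1 and 1 in dog 4 sample 1. The highest library was dog 1 sample 1 for 5, dog 3 sample 1 for 5 and dog 4 sample 0 for 3. Counts of mitochondrial ribosomal RNA, which is not among the members, were also lowest in dog 1 sample 2 (0.0703% of counts) and highest in dog 1 sample 1 (0.427%). They did not follow the members in every library. In dog 4 sample 0 they took 0.132%, beside a median of 0.134% over all 13 libraries.

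**Figure D2:**
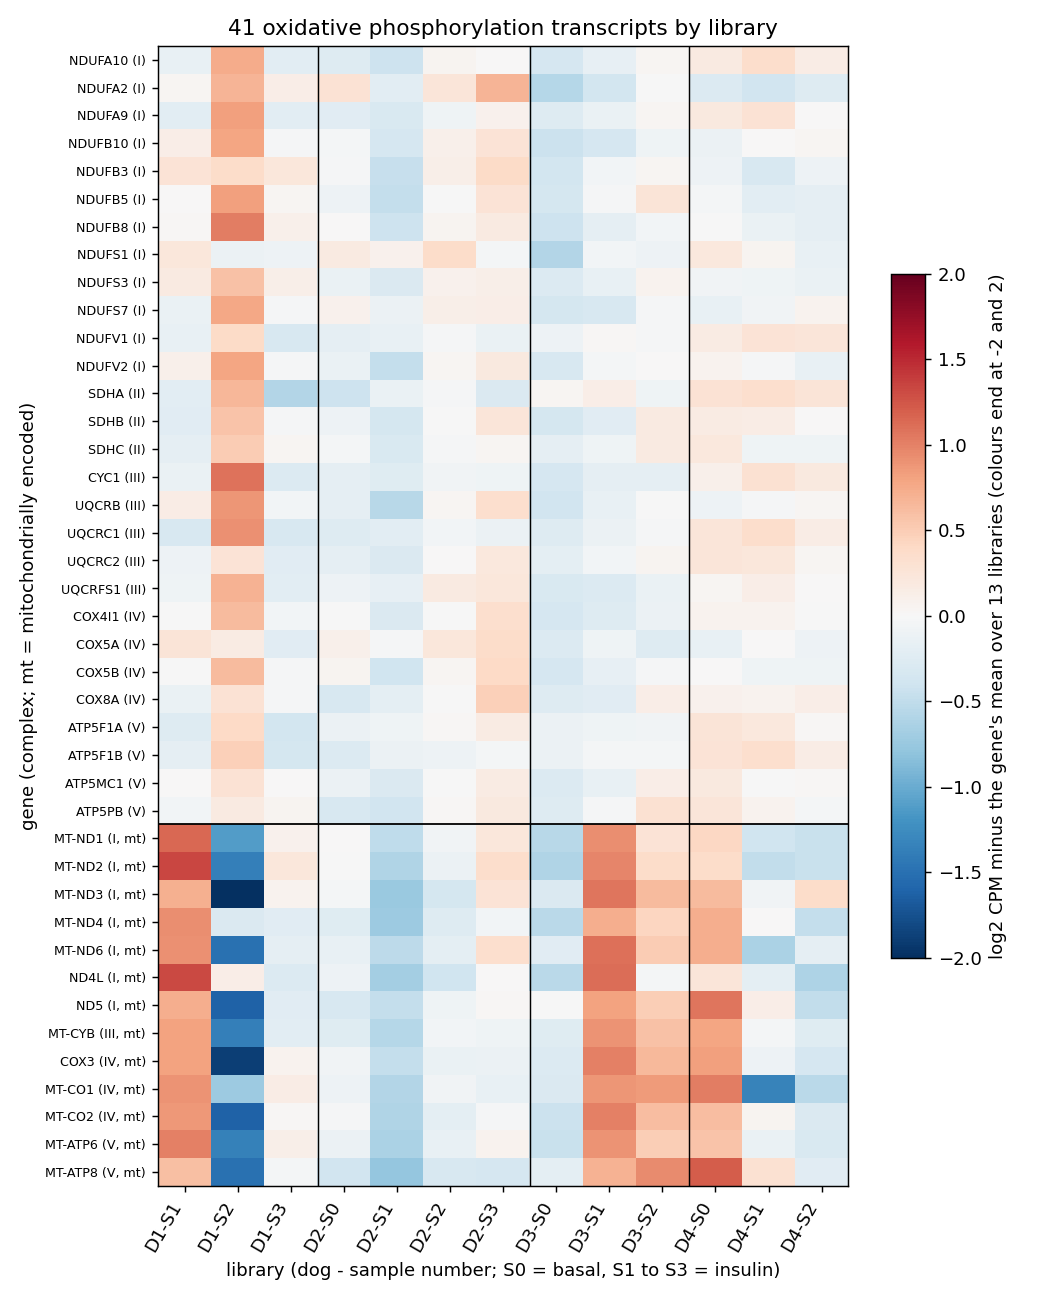
Log2 CPM of each of the 41 members (rows, ordered by genome and complex) minus that gene's mean over the 13 libraries (columns, ordered by dog and sample number), from blue (lower) to red (higher), with the colour scale ending at -2 and 2. The mitochondrial block shows columns that are high or low as a whole, and dog 1 sample 2 is red over most nuclear rows and blue over most mitochondrial rows.

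In the make-up of the mitochondrial counts, 2 libraries stood apart from the other 11 for some genes. Among those 11, ND4L took 1.28% to 2.69% of the counts of the 13 genes and MT-ND3 took 0.401% to 0.793%. MT-CO1 took 25.8% to 33.1% in the same 11 libraries. In dog 4 sample 1 it took 14.2%, and the ratio of MT-CO1 to MT-CO2 counts was 1.07 there against 2.33 to 5.18 in the others. The ratio of MT-CO2 to COX3 in that library, 0.561, lay slightly above the 0.436 to 0.535 of the 11 libraries and below the 0.603 of dog 1 sample 2. Of the complex IV members, MT-CO1 thus differed most there. In dog 1 sample 2, MT-CO1 took 35.2% and MT-ND4 took 21.5%, against 10.8% to 16.3% for MT-ND4 elsewhere. ND4L took 4.57% in that library, and COX3 took 11.3%, where its median share was 20.8%. The ratio of MT-ND4 to MT-ND1 was 10.2 in dog 1 sample 2 and ranged from 4.65 to 7.62 in the other libraries. These shares compare each gene with itself across libraries, since transcript lengths were not used.

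**Figure D3:**
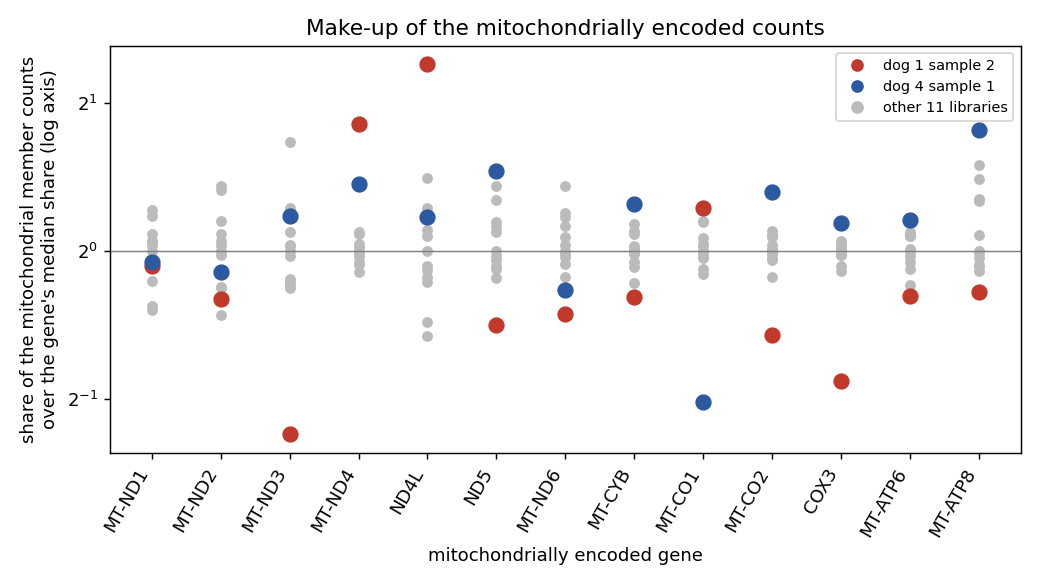
Share of each gene in the counts of the 13 mitochondrially encoded members, divided by that gene's median share over the libraries (vertical axis, log scale with base 2), with 1 point per library, red for dog 1 sample 2, blue for dog 4 sample 1 and grey for the other 11. MT-CO1 drops to 14.2% in dog 4 sample 1, and MT-ND4 reaches 21.5% in dog 1 sample 2.

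The nuclear members were far steadier. For complex I, NDUFS7, the iron-sulfur subunit next to the ubiquinone site, stood at 1247, 912 and 1056 CPM in the basal libraries of dogs 2, 3 and 4 and at 941, 1145 and 2009 CPM as its insulin lowest, median and highest. NDUFA10, an accessory subunit of the membrane arm, had 367, 348 and 494 CPM in the basal libraries and 328, 445 and 732 CPM across the insulin ones. Both had their highest value in dog 1 sample 2. The groups overlapped for both genes, although NDUFS7 was lowest in a basal library, dog 3 sample 0. In complex II, SDHA, the flavoprotein that oxidises succinate, had 678, 928 and 1105 CPM in the basal libraries and 597, 870 and 1431 CPM across the insulin ones. SDHB, which carries the iron-sulfur centres of that enzyme, had 272, 228 and 329 CPM in the basal libraries and 229, 292 and 435 CPM across the insulin ones. Basal and insulin values of both overlapped.

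In complex III, UQCRC1, a large core subunit on the matrix side, stood at 1285, 1281 and 1810 CPM in the basal libraries and at 1232, 1446 and 2879 CPM as insulin lowest, median and highest. UQCRB, a small subunit of that complex, had 411, 358 and 432 CPM in the basal libraries and 315, 470 and 859 CPM across the insulin ones. Both again peaked in dog 1 sample 2. In complex IV, COX4I1, the general form of the largest nuclear subunit, had 1240.1, 993 and 1311 CPM in the basal libraries and 1027, 1240 and 1933 CPM across the insulin ones. COX8A, a small subunit, had 10.5, 10.9 and 13.9 CPM in the basal libraries and 11.2, 13.3 and 18.2 CPM across the insulin ones. Its highest library was dog 2 sample 3, 1 of the few cases where dog 1 sample 2 was not the top. In complex V, ATP5F1B, the catalytic beta subunit, had 3879, 4303 and 5689 CPM in the basal libraries and 3688, 4575 and 6539 CPM across the insulin ones. ATP5PB, part of the stalk that holds the enzyme still, had 712, 741 and 1052 CPM in the basal libraries and 681, 913 and 1099.6 CPM across the insulin ones. Many nuclear subunit genes have processed pseudogenes, and reads that match both could be counted in either place.

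Dog 1 sample 2 was the highest library for 23 of the 28 nuclear members. Against sample 1 of the same dog, 26 nuclear members were higher and 2 lower, with a median log2 difference of 0.65, while all 13 mitochondrial members were lower, with a median of -2.34. The nuclear sum was 39514 CPM against 24667 CPM in dog 1 sample 1, but the nuclear share of all counts was 3.20% against 2.53%. The size of the nuclear difference thus depends on the scaling. CYC1, the cytochrome c1 of complex III, had 2084 CPM in dog 1 sample 2 and 895 CPM in dog 1 sample 1. NDUFB8, an accessory complex I subunit, had 1117 CPM there and 556 CPM in dog 1 sample 1. These 2 genes were named after their values were seen. By complex, the nuclear median difference was 0.66 for complex I, 0.80 for complex II, 0.78 for complex III, 0.53 for complex IV and 0.47 for complex V. The skeletal muscle marker sum in this library was 389654 CPM against at most 322668 CPM elsewhere. That sum includes ACTA1, which took 18.4% of the counts of this library, and it was not taken without ACTA1. Slow fibre markers (31557 CPM) and fast fibre markers (51699 CPM) lay inside the ranges of the other libraries. The part of fibre content in the differences of the members was not tested.

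The first comparison the design implies is insulin against basal, fitted over all 13 libraries with the dog as a block. No member of either genome passed the test. With edgeR's quasi-likelihood test and Benjamini-Hochberg adjustment, 0 of 28 nuclear and 0 of 13 mitochondrial members had an adjusted p under 0.05, where 0.137% of the genes tested did (20 of 14629). At an unadjusted p under 0.05 the count was 0 of 41, where 603 of all genes tested (4.12%) reached it, and DESeq2 called 0 of 41 members and 0.576% of the genes it tested (103). The lowest adjusted p of any member was 1.0. In bulk tissue, fewer cells of a type and less RNA per cell cannot be told apart.

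The fitted differences of nuclear members were small and those of mitochondrial members uncertain. Over the nuclear members the log2 fold change, insulin against basal, had a median of 0.10 and ran from -0.05 (SDHC, a membrane anchor of complex II) to 0.23 (COX8A), and 27 of 28 were above 0. That median was 0.047 without dog 3 sample 0 and 0.163 without dog 4 sample 0. The median over all genes tested was -0.001, with 7281 of 14629 above 0. The median SE of a nuclear member was 0.19, so the individual values were of the size of their error. The largest had SEs to match, with 0.23 ± 0.19 (SE) for COX8A, 0.19 ± 0.22 for UQCRB, 0.17 ± 0.21 for NDUFA10 and 0.155 ± 0.17 for ATP5PB. Of the 28, 9 were above basal in each of dogs 2, 3 and 4, 13 in 2 of these dogs and 6 in 1. The basal and insulin values of all 41 members overlapped. Neither this count nor the per-dog count is set beside its share over all genes tested. Neither can thus be read as a trait of the members.

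By complex, the nuclear medians for insulin against basal were 0.10 for complex I, 0.09 for complex II, 0.11 for complex III, 0.08 for complex IV and 0.07 for complex V. The mitochondrial members had a median of -0.04, with 4 above 0 and 9 below, of which MT-ND1 and MT-CO2 were above 0, at 0.002 and 0.007, when scaled by DESeq2-type size factors. Their median SE was 0.42. MT-ND3 had the highest value, 0.10 ± 0.47 (SE), and MT-CO1 the lowest, -0.46 ± 0.47, with an unadjusted p of 0.341 and an adjusted p of 1.0 by edgeR. The mitochondrial medians were -0.01 for complex I, -0.04 for complex III, -0.13 for complex IV and -0.08 for complex V. The sign of the overall mitochondrial median turned on single basal libraries. It was 0.40 without dog 4 sample 0 and -0.47 without dog 3 sample 0. Leaving out an insulin library gave values of either sign no larger than 0.141 in size, so the 2 basal libraries were the ones that moved it most.

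**Figure D4:**
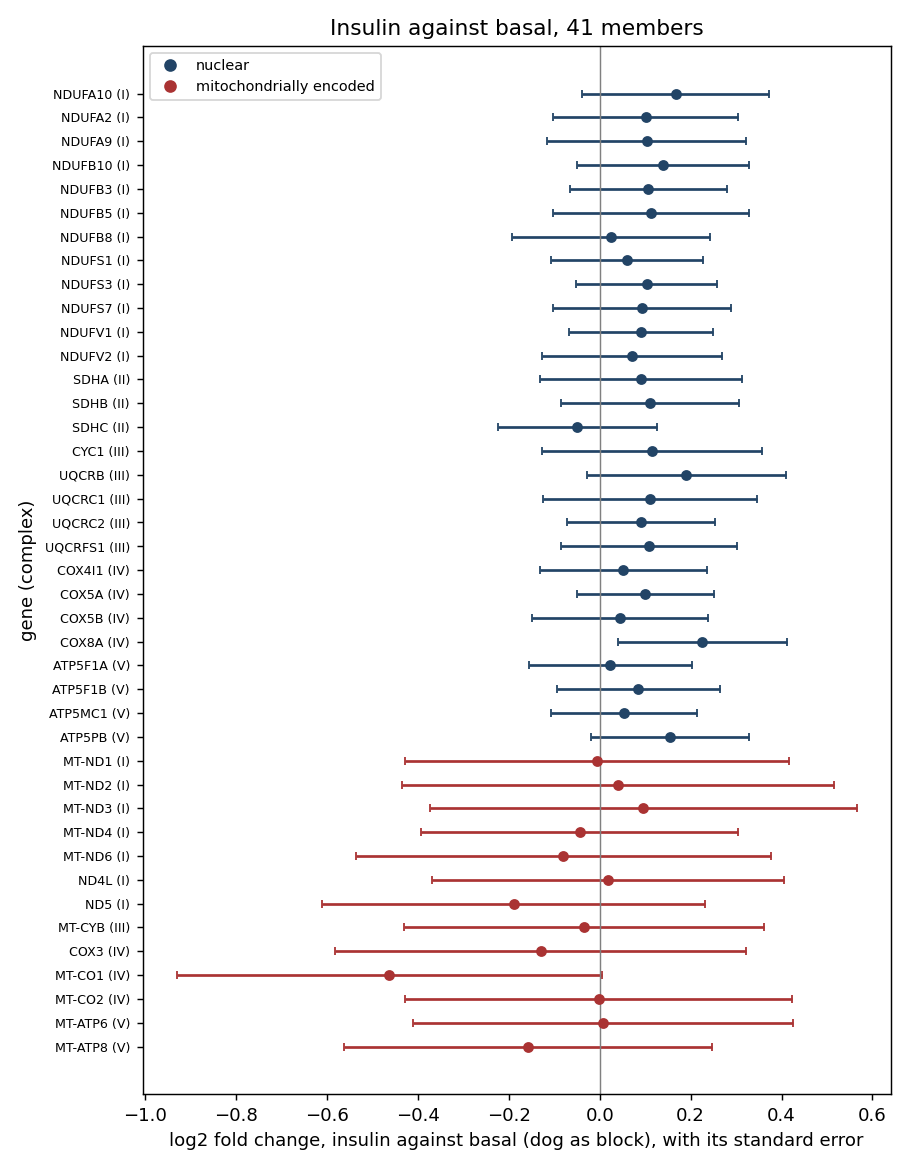
Log2 fold change of insulin against basal with its standard error (horizontal axis) for each of the 41 members, ordered by genome and complex, blue for nuclear and red for mitochondrially encoded genes. Nuclear estimates sit between -0.05 and 0.23 with short bars, mitochondrial ones between -0.46 and 0.10 with longer bars, and no member passed the test.

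Against basal, the mitochondrial members stood higher together in dog 3, lower together in dog 4 and were mixed in some libraries of dog 2. In dog 3 the 13 mitochondrial members were all higher in samples 1 and 2 than in sample 0, and their sum was 2.40 and 1.98 times the basal one. In dog 4 all 13 were lower in samples 1 and 2 than in sample 0, with sums 0.454 and 0.432 times the basal one. In dog 2 the sums of samples 1, 2 and 3 were 0.721, 0.983 and 1.04 times the basal one. All 13 members were lower in sample 1 of that dog. In its sample 2, 4 were higher and 9 lower, and in its sample 3, 10 were higher and 3 lower. The mean insulin minus basal difference of the mitochondrial members, as a median of log2 CPM, was -0.12 in dog 2, 1.12 in dog 3 and -0.93 in dog 4, so the spread over dogs (SD 1.03, n = 3) was far larger than the mean over dogs of 0.03.

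Each complex showed the same split. In dog 3 the median log2 difference of sample 1 from sample 0 was 1.36 for mitochondrial complex I members, 1.14 for MT-CYB, 1.27 for complex IV and 1.11 for complex V. In dog 4 the corresponding values were -0.81, -0.82, -0.93 and -0.81, and for sample 2 they were -0.87, -1.03, -1.16 and -1.16. The nuclear members differed less. Their sums were 1.09 and 1.16 times basal in dog 3 and 1.00 and 0.927 times basal in dog 4. The median nuclear difference per dog was 0.08 in dog 2, 0.22 in dog 3 and -0.04 in dog 4. In dog 2 samples 2 and 3 the nuclear median was larger in size than the mitochondrial one, with 0.14 against -0.05 and 0.30 against 0.19.

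**Figure D5:**
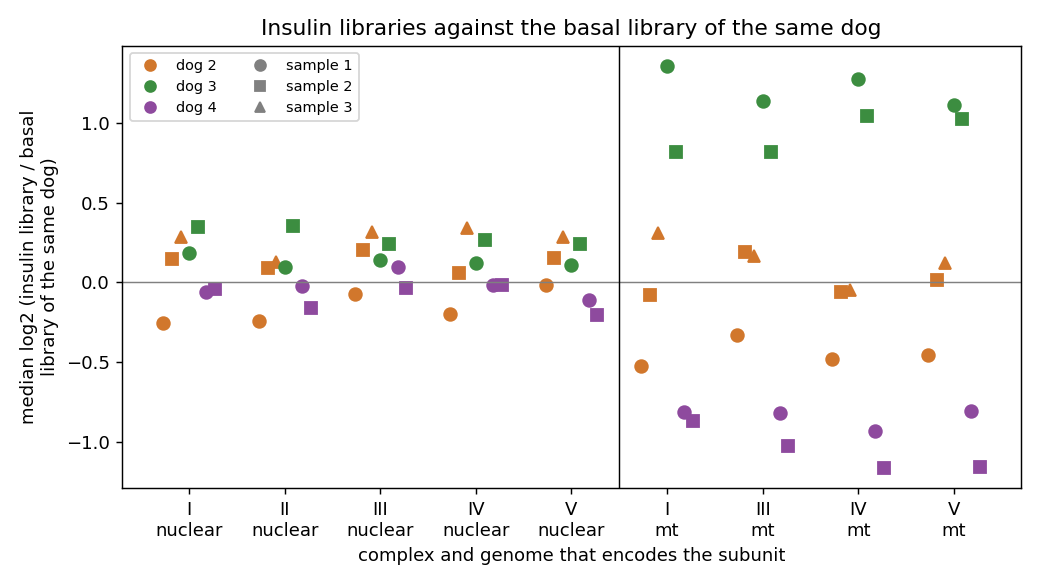
Median log2 ratio of each insulin library to the basal library of the same dog (vertical axis), by complex and genome of origin (horizontal axis), with colours for dogs 2, 3 and 4 and symbols for samples 1, 2 and 3. Mitochondrial members of dog 3 lie near 1 and those of dog 4 near -1 in every complex, while the nuclear medians lie between -0.26 and 0.36.

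Because every insulin library of dog 3 and of dog 4 moved opposite ways, the difference between the insulin effects of these dogs was fitted as an interaction, an analysis added after the data were seen. The mitochondrial members had a median log2 difference, dog 4 minus dog 3, of -2.03, and all 13 were negative, from -3.08 for MT-CO1 to -1.62 for MT-ND3, while the nuclear median was -0.24. With edgeR's quasi-likelihood test, 0 of 41 members passed after adjustment, where 0.00684% of all genes did (1 of 14629). The lowest adjusted p was 0.464 for MT-CO1 (-3.08 ± 0.78 SE, unadjusted p 0.00184). At an unadjusted p under 0.05 there were 4 mitochondrial and 0 nuclear members, where 6.95% of all genes tested reached it. With 1 insulin library left out, the number of members at that level ran from 2 (without dog 4 sample 2) to 13 (without dog 1 sample 2), with 12 without dog 1 sample 1, and 0 members were called each time. The number of genes called over the whole table was then 0 to 2. Without the filter on low counts, 12 members and 264 genes were called. The number of genes tested without the filter is not given here, so the 12 are not set beside a share. Dogs 3 and 4 had 1 basal biopsy each, so a property of that biopsy and of the dog cannot be told apart. Marker sums differed between the same libraries. Fibroblast markers stood at 2895, 731 and 514 CPM in dog 3 samples 0, 1 and 2 and at 228, 321 and 584 CPM in dog 4. Slow fibre markers stood at 39394, 41151 and 40549 CPM in dog 3 and at 57624, 50356 and 43660 CPM in dog 4. The part of these markers in the mitochondrial differences was not tested.

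The comparisons by sample number used the same basal libraries and share the libraries of samples 1 and 2, so they are not independent of each other. For sample 1 against basal, edgeR called 0 members and 0.0% of all genes (438, or 2.99%, at an unadjusted p under 0.05), and DESeq2 called 0 members and 0.305% of its genes (77). The nuclear median log2 fold change was -0.02, and it ran from -0.125 to 0.043 with 1 library left out. The mitochondrial median was 0.25, but leaving out dog 3 sample 0 gave -0.167 and leaving out dog 1 sample 1 gave -0.066. With dog 4 sample 0 removed it came to 0.749. Per dog, that median difference was -0.49 in dog 2, 1.33 in dog 3 and -0.82 in dog 4, with a mean of 0.005 (SD 1.16). For sample 2 against basal, 0 members and 0.0479% of all genes (7 of 14629) passed, against 0 members and 0.573% of genes (142) with DESeq2. Here the nuclear median was 0.24 with all 28 above 0, and the mitochondrial median was -0.34 with all 13 below 0, beside 7004 of 14629 genes tested above 0. Without dog 1 sample 2 the nuclear and mitochondrial medians were 0.105 and -0.147. Without dog 4 sample 0 the mitochondrial median was 0.131, and without dog 3 sample 0 it was -0.807. Per dog, the mitochondrial median difference was -0.05 in dog 2, 0.91 in dog 3 and -0.92 in dog 4. Its mean over these 3 dogs was -0.02 (SD 0.92), and the nuclear mean was 0.13 (SD 0.21). Dog 1, without a basal library, enters the fitted medians through its other samples. No member reached an unadjusted p under 0.05 in either comparison, where 4.95% of all genes (724) did for sample 2.

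Sample 2 against sample 1 is the comparison that all 4 dogs share. The nuclear median was 0.29, with 26 of 28 members above 0, and the mitochondrial median was -0.64, with 13 of 13 below 0. Of all genes tested, 6959 of 14629 were above 0. By edgeR 0 members and 0.0% of all genes tested passed (495 genes, or 3.38%, at an unadjusted p under 0.05), and DESeq2 called 0 members and 0.381% of genes (96). Of the members, NDUFS7 alone was under 0.05 before adjustment, with 0.41 ± 0.17 (SE), an unadjusted p of 0.0329 and an adjusted p of 0.902 in edgeR. Of the mitochondrial members, ND4L came lowest in p, with -0.73 ± 0.36 (SE) and an adjusted p of 0.902 in edgeR. Both medians were nearer to 0 without dog 1 sample 2. Per dog, the mitochondrial median difference was -2.34 in dog 1, 0.45 in dog 2, -0.39 in dog 3 and -0.21 in dog 4, and the nuclear one was 0.65, 0.29, 0.14 and -0.08. Without dog 1 sample 2 the medians were 0.115 for the nuclear and -0.23 for the mitochondrial members, and without dog 1 sample 1 the mitochondrial median was -0.15.

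The last comparison asks whether the 4 dogs differed beyond the spread between biopsies of 1 dog. None of the 41 members passed, where 3.13% of all genes tested did (458 of 14629) by edgeR's quasi-likelihood F test. At an unadjusted p under 0.05 the count was 0 of 41 against 15.6% of all genes, and DESeq2 called 0 members and 8.6% of genes (1285). The member of lowest p was NDUFA2, an accessory subunit of complex I, with an adjusted p of 0.323 in edgeR. Its values were 210, 326 and 223 CPM in dog 1, 249, 175, 241 and 326 CPM in dog 2, 138, 158 and 203 CPM in dog 3 and 169, 157 and 170 CPM in dog 4, each in order of sample number. The mitochondrial member of lowest p was MT-ATP8, with an adjusted p of 0.51 in edgeR. The mean mitochondrial sum was 8120 ± 5034 CPM (SD, n = 3) in dog 1, 6221 ± 973 CPM (n = 4) in dog 2, 10093 ± 4051 CPM (n = 3) in dog 3 and 7910 ± 4053 CPM (n = 3) in dog 4, so the dog means differed by less than the spread within 3 of the dogs.

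The balance among nuclear complexes was taken as a share of the summed nuclear CPM. Complex I members took 24.7% to 25.4% in dog 1 and 22.5% to 24.8% in dog 2. They took less, 21.6% to 23.5% in dog 3 and 21.2% to 22.3% in dog 4, than in any dog 1 library. Complex IV members took 9.31% to 10.6% in dog 1, 9.28% to 11.3% in dog 2, 8.91% to 9.01% in dog 3 and 8.59% to 8.93% in dog 4. Complex V members took 36.5% to 39.7% in dog 1, 39.6% to 42.9% in dog 2, 42.0% to 43.5% in dog 3 and 42.0% to 44.1% in dog 4. Complex II members took 5.43% to 6.92% over all libraries. Complex III members took 18.9% to 20.7% outside dog 1 sample 2, where they took 22.7%. No test was made on these shares. Slow fibre markers differed between dogs for 2 of 9 genes and fast fibre markers for 4 of 8 genes at an adjusted p under 0.05 in edgeR. The same was true of 1 of 5 neutrophil and 1 of 5 macrophage markers tested. Over all genes tested the share was 3.13%. The part of these markers in the shares was not tested.

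Other genes of the pathway, taken from lists of subunits, assembly factors, mitochondrial gene expression, the tricarboxylic acid cycle and regulators, were tested in the same fits. In the 4 comparisons of stimulation and sample number, edgeR called 0 of 16 other complex I subunits, 0 of 3 other complex III subunits with cytochrome c, 0 of 5 other complex IV subunits and 0 of 6 other complex V subunits. The same was true of 39 assembly factors, 25 genes of mitochondrial DNA transcription, replication and RNA stability, 9 translation factors, 11 genes of the tricarboxylic acid cycle and 10 regulators. Median log2 fold changes of these lists for insulin against basal lay between 0.04 and 0.12, beside -0.001 for all genes.

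Among the regulators, PPARGC1A, the coactivator PGC-1alpha that drives mitochondrial biogenesis, had the lowest p. It stood at 38.2, 28.3 and 40.6 CPM in the basal libraries of dogs 2, 3 and 4 and at 38.6, 63.1 and 72.8 CPM as the lowest, median and highest of the insulin libraries. The log2 fold change was 0.67 ± 0.21 (SE), with an unadjusted p of 0.00759 and an adjusted p of 0.65 by edgeR, and the groups overlapped through dog 4 sample 0. PERM1, a muscle partner of that coactivator, had 0.50 ± 0.26 and ESRRG, a nuclear receptor of oxidative genes, had -0.31 ± 0.21 on the same scale, both with an adjusted p of 1.0. Of the factors that act on mitochondrial RNA, FASTKD1 had 0.36 ± 0.17, SUPV3L1, a helicase of RNA decay, had -0.34 ± 0.18, and MTERF3, a transcription regulator, had 0.25 ± 0.18. All 3 had an adjusted p of 1.0 in edgeR.

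Subunits outside the member list had small estimates as well. In complex I, NDUFV3 had a log2 fold change of 0.17 ± 0.19 (SE), NDUFA12 one of 0.16 ± 0.17 and NDUFB2 one of 0.14 ± 0.18. UQCR10 and UQCRQ of complex III had 0.16 ± 0.19 and 0.10 ± 0.19, and CYCS, which is cytochrome c itself, had 0.12 ± 0.21. In complex V, ATP5IF1, the inhibitor of the ATP synthase, had 0.14 ± 0.19, ATP5F1E had 0.11 ± 0.19 and ATP5PF had 0.07 ± 0.18. The assembly factors BCS1L of complex III, NDUFAF7 of complex I and UQCC1 of complex III had 0.29 ± 0.21, 0.26 ± 0.19 and 0.21 ± 0.16. None had an adjusted p under 1.0 in edgeR.

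Translation factors and enzymes of the tricarboxylic acid cycle were tested likewise, and none of those named passed. TUFM, the mitochondrial elongation factor Tu, had a log2 fold change of 0.18 ± 0.14 (SE), its exchange factor TSFM had 0.14 ± 0.14 and the initiation factor MTIF3 had 0.12 ± 0.16. In the cycle, SUCLG1, a succinyl-CoA ligase subunit, had 0.11 ± 0.20 and DLD, a dehydrogenase shared by several enzyme complexes, had -0.12 ± 0.24. Of the isoform pairs of complex IV, the muscle forms COX6A2 and COX7A1 stood at 722 ± 109 and 288 ± 57.4 CPM in the basal libraries (SD, n = 3) and at 791 ± 136 and 344 ± 94.9 CPM in the insulin libraries (SD, n = 10). COX4I2 stood at 2.41 ± 0.121 and 2.85 ± 0.989 CPM and NDUFA4L2 at 0.628 ± 0.349 and 1.08 ± 0.594 CPM in the same groups. The general forms COX6A1 and COX7A2 were not found under these names and were not analysed here.

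Between dogs, 2 of the 124 genes tested from these lists passed (1.61%), a share below the 3.13% of all genes. ACAD9, which takes part in assembling complex I, stood at 117, 121 and 97.0 CPM in dog 1, at 120, 134, 133 and 135 CPM in dog 2, at 181, 193 and 177 CPM in dog 3 and at 253, 259 and 256 CPM in dog 4, each in order of sample number. Dogs 3 and 4 did not overlap with each other or with dogs 1 and 2. The adjusted p of ACAD9 was 0.00626 in edgeR, it lay between 0.00419 and 0.0358 with any 1 library left out, and it was 0.0874 with samples 1 and 2 only. FASTK, a relative of FASTKD1 with a form needed for the mitochondrial ND6 transcript, had 98.5 to 182 CPM in dog 1, 85.5 to 126 CPM in dog 2, 78.8 to 106 CPM in dog 3 and 67.2 to 85.9 CPM in dog 4. The adjusted p of FASTK was 0.042 in edgeR, but it lay between 0.0509 and 0.136 with any 1 library left out. MT-ND6 itself did not pass the comparison of dogs, with an adjusted p of 0.786 in edgeR.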

How the data were processed

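RNA of 13 flash frozen dog muscle biopsies was sequenced from SMART-Seq v4 and Nextera XT libraries, which keep no strand, per the labels' protocols. The authors deposited raw read counts per gene, and a second set of values, unit signal, in which the deposited counts were divided by size factors equal to the median of ratios. Bowtie 0.12.2 and CanFam3.1 are named per the submitters' processing notes; the counting program and annotation are not given in the sources used here. Members, lists and tests were chosen with earlier results of these data known.

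Counts were tested in R 4.3.3 with edgeR 4.0.16 (filterByExpr, TMM scaling, robust quasi-likelihood fit, Benjamini-Hochberg adjustment at 0.05), with dog as a block. Dog 1 entered without a basal library. Pairing comes from the labels, since libraries share animals. The median correlation of deviations was 0.148 within dogs (15 pairs) and -0.0496 over 47 pairs between dogs. Those 47 are not all of the pairs between dogs. Of 13 libraries, 11 correlated best with their own dog. None of the 31 pairs of libraries compared agreed within counting noise (chi-square per gene 31.8 to 560). The remaining pairs were not compared in this way. Each SE is the size of the log2 fold change over the square root of F.

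Named members are all mitochondrially encoded genes and, per complex, the most abundant nuclear gene and that of lowest p; in other lists, the 3 genes of lowest p with a mean log2 CPM of at least 1, any gene that passed, and the isoform pairs. 1 gene that this rule names is not reported here. CYC1 and NDUFB8 were added after their values were seen. Of 242 listed symbols, 184 were found. Alternatives were DESeq2 1.42.0, DESeq2-type size factors, no filter, no block, counts summed per dog, scaling without mitochondrial genes and ACTA1, fewer samples, and each library left out. The fits were checked on simulated counts that held no other differences between dogs. For insulin against basal, 52 of 100 genes changed 2-fold and 97 of 100 changed 4-fold were recovered, with 7 false calls. For dogs the counts were 44 and 98 of 100, with 4 false calls. A 2-fold change could thus be missed. The simulated spread followed the trend over genes of like level. The mitochondrial members spread more, with a median SD of log2 CPM of 0.70. That of genes at or above the lowest nuclear member was 0.30. The recovery counts thus do not carry over to the mitochondrial members, in which larger changes could be missed too.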

Additional observations from a re-analysis of the deposited data

Results flagged for a closer look

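Single libraries stood apart from the others of their group in 18 of 142 groups of values, where chance gives about 1 in 20. Many groups share libraries and genes, such as a sum and its parts. The 18 are thus not independent and do not measure an excess over chance. Dog 1 sample 2 was the highest of the 4 sample 2 libraries in 11 of the 18. Its nuclear sum was 39514 CPM against 26213 to 27383 CPM in the other 3, with 9946 CPM for complex I and 8957 CPM for complex III. As a share of all counts its nuclear members took 3.20%, against 2.43% to 2.76% in the other 3. Single genes high in that library were NDUFS7 (2009 CPM), NDUFA10 (732 CPM), UQCRC1 (2879 CPM), UQCRB (859 CPM), COX4I1 (1933 CPM), COX7A1 (518 CPM) and NDUFA4L2 (2.23 CPM), and its ratio of ND4L to MT-ND1 counts was 2.17 against 0.72 to 0.809.

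Among the sample 1 libraries, dog 4 had the lowest ratio of MT-CO1 to MT-CO2 (1.07, against 2.56 to 2.84) and the highest ratio of MT-ND4 to MT-ND1 (7.62, against 4.90 to 5.02). It also had the highest BCS1L (44.996 CPM) and TSFM (170.0 CPM). Dog 1 sample 1 had the highest NDUFB2 (366 CPM). Dog 2 sample 1 had the lowest FASTKD1 (8.10 CPM) and the lowest ratio of ND4L to MT-ND1 (0.812).

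The insulin effect on the mitochondrial members had opposite signs in dogs 3 and 4 in every insulin library, and the median difference on the log2 scale, dog 4 minus dog 3, was -2.03. The edgeR test of this difference was added after the data were seen. With the filter on low counts no member passed it. Without that filter 12 members passed, among 264 genes over the whole table. The 12 are not set beside a share over all genes tested, so they cannot be read as a trait of the members. Each of these dogs had 1 basal biopsy.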

How the results depend on the processing

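Of the members, 0 passed in insulin against basal, the 3 comparisons by sample number and the comparison of dogs under DESeq2, its size factors, no filter, scaling without mitochondrial genes and ACTA1, or any 1 library left out. The same held without the block (not run for dogs), with summed counts or without dog 1 (insulin against basal only) and with samples 1 and 2 only (dogs only). The added test of dog 4 against dog 3 called 12 members without the filter, among 264 genes over the whole table. Counts of genes passing over the whole table depended on the tool and filter. For insulin against basal, 20 genes became 103 with DESeq2, 3 with counts summed per dog and 140 without the filter. For sample 1 against basal, 0 became 77 with DESeq2, 4 with its size factors and 16 without the filter. For sample 2 against basal, 7 became 142 with DESeq2 and 28 without the filter, and for sample 2 against sample 1, 0 became 96 with DESeq2. For dogs, 458 became 1285 with DESeq2, 793 without the filter and 194 with samples 1 and 2 only. With 1 library left out the counts ran from 7 to 28, 0 to 8, 0 to 12, 0 to 0 and 193 to 625 in that order. The causes were not tested.

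Without the replicate block, 6 genes passed for insulin against basal and 0 for sample 2 against basal, and no member's call changed. Without that block the log2 fold change turned to 0.146 for MT-ND1, 0.016 for MT-ND4, 0.03 for MT-CO2 and -0.188 for ACAD9. With summed counts it turned to 0.076 for MT-ND1, 0.024 for MT-ND4, 0.018 for MT-ND6, 0.027 for MT-CYB and 0.079 for MT-CO2. DESeq2 gave 0.001 for MT-ND1 and 0.006 for MT-CO2, and its size factors in edgeR gave 0.002 and 0.007.

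The sign of small estimates for insulin against basal depended on single libraries. With 1 library left out, the log2 fold change ran from -0.461 to 0.447 for MT-ND1, -0.435 to 0.517 for MT-ND2, -0.308 to 0.388 for MT-ND3, -0.498 to 0.44 for MT-ND4, -0.42 to 0.364 for ND4L, -0.552 to 0.384 for ND5 and -0.535 to 0.499 for MT-ND6. It ran from -0.446 to 0.447 for MT-CYB, -1.089 to 0.402 for MT-CO1, -0.467 to 0.387 for MT-CO2, -0.601 to 0.373 for COX3, -0.431 to 0.435 for MT-ATP6 and -0.619 to 0.394 for MT-ATP8. For all 13 of these genes the lowest value came without dog 3 sample 0 and the highest without dog 4 sample 0. Outside the mitochondrial genome the ranges that crossed 0 were -0.004 to 0.144 for SDHA, -0.009 to 0.097 for COX4I1, -0.04 to 0.305 for CYCS, -0.012 to 0.199 for UQCRQ, -0.101 to 0.202 for COX7A1, -0.027 to 0.154 for ATP5PF and -0.27 to 0.069 for DLD. Every library held at least 45200416 counts, and each comparison with basal rests on 3 basal libraries.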
